A study of Mus musculus with 8 samples.

Results

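Igf1 and the Igfbp genes, which encode insulin-like growth factor 1 and the secreted proteins that bind it, were followed in embryonic mouse kidneys with and without Grb2 in the ureteric bud. The 8 genes Igf1, Igfbp1, Igfbp2, Igfbp3, Igfbp4, Igfbp5, Igfbp6 and Igfbp7 were taken by name from the 22180 genes measured, and all 8 had 1 probe set each. The Grb2 UB-cKO group held 4 embryos in which Grb2 was knocked out in the ureteric bud (UB) epithelium, and the control group held 4 wild-type embryos. All 8 embryos came from 1 litter and were taken at E14.5 (the embryonic day). Both kidneys of an embryo were pooled, and RNA of the whole organ was read on 1 array per embryo. Neither the labels nor the protocols used here name the Cre or promoter behind the deletion. All values are log2 probe-set values, and differences are Grb2 UB-cKO minus control.

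IGF1 is a growth factor that binds the receptor tyrosine kinase IGF1R on nearby cells, and the activated receptor signals through IRS and SHC adaptors to phosphoinositide 3-kinase and, with GRB2, to the RAS pathway. The IGF binding proteins hold most of the extracellular IGF1 and IGF2, which can store the ligand in the matrix, prolong its life or keep it from the receptor, until proteases cut the binding protein. In the developing kidney, IGF signals promote growth of the ureteric bud and of the nephron lineage, and stromal cells, macrophages and endothelium are known sources of several of these factors.

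Igf1 was 2.27-fold higher in Grb2 UB-cKO kidneys, Igfbp6 1.85-fold higher and Igfbp5 1.61-fold higher, and each of these differences passed the test across all genes. Igfbp1, Igfbp2, Igfbp3, Igfbp4 and Igfbp7 did not pass. The members called were 3 of 8, all higher, where 28.1% of all genes tested were called in either direction and 13.7% were called higher. The median log2 fold change of the 8 genes was 0.24, against 0.01 over all genes tested. A call means an adjusted p under 0.05 in limma, adjusted by Benjamini-Hochberg over all 22180 genes, and every adjusted p here comes from that model.

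The sequences just upstream of the 3 genes that rose, and of Igfbp2 as the neighbour of Igfbp5, show what these genes have at their starts. Each run holds the 250 bases before a RefSeq transcript start on build GRCm38.p6, read 5′ to 3′ on the strand of the gene, with matches to the motifs searched in capitals. The positions are chr10:87860861-87861110 on the plus strand for Igf1, chr1:72874866-72875115 on the minus strand for Igfbp5, chr15:102143936-102144185 on the plus strand for Igfbp6 and chr1:72824230-72824479 on the plus strand for Igfbp2. Igfbp2 has a further start in the table, not shown. The Igf1 window lies inside the RefSeq gene, so it belongs to a start that is not the outermost one.
Igf1: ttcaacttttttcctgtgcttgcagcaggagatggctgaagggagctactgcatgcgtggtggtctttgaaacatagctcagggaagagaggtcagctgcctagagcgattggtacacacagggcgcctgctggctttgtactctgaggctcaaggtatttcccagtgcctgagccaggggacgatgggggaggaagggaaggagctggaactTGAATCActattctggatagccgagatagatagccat
Igfbp5: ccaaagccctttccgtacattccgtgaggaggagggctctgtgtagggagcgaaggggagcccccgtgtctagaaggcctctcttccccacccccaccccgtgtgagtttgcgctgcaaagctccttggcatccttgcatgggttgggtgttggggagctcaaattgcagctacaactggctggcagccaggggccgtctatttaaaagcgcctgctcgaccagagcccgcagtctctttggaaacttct
Igfbp6: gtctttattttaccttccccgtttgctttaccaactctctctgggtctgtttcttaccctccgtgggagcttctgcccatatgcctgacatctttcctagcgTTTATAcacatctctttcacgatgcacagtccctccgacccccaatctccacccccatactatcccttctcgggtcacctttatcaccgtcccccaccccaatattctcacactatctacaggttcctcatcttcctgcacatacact
Igfbp2: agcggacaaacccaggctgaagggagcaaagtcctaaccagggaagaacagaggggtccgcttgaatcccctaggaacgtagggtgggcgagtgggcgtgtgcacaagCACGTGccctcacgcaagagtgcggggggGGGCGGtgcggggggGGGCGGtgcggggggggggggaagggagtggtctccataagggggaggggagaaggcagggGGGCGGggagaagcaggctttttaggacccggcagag

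The motifs searched on both strands were the TATA box TATAAA, the FOXO letters GTAAACA, the AP-1 letters TGANTCA, the ETS letters CCGGAAG, the GC box GGGCGG and the E-box CACGTG. The Igf1 window held 1 match, TGAATCA, an AP-1 type of letters, starting 37 bases before the start. The Igfbp6 window held TTTATA, the TATA letters on the opposite strand, 148 bases before its start, and the Igfbp5 window held none of the 6 motifs. The Igfbp2 window held 1 E-box and 3 GC boxes. No matches overlapped. Among 32851 such windows of all genes, 6.75% held the AP-1 letters, 12.4% the TATA letters, 32.7% the GC box, 6.02% the E-box, 6.91% the ETS letters and 3.17% the FOXO letters. Bases G and C made up 52.8% of the Igf1 window, 49.6% of the Igfbp6 window, 58.8% of the Igfbp5 window and 67.2% of the Igfbp2 window, against a median of 52.4%. The 3 genes that rose shared none of the motifs searched in these windows.

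Grb2 itself was 8.36, 8.17, 8.22 and 8.07 in Grb2 UB-cKO replicates 1 to 4 and 8.68, 8.65, 8.61 and 8.66 in control replicates 1 to 4. It was thus lower in all 4 knockout kidneys, with a log2 fold change of -0.45 (SE 0.07, adjusted p = 0.0017), in RNA that also held the cells that were not targeted. The groups differed in the sex of the embryos as well. Averaged over 3 genes of the Y chromosome (Eif2s3y, Kdm5d, Uty), control replicates 1, 2 and 4 stood at 4.09 to 4.24, control replicate 3 at 9.94 and the 4 Grb2 UB-cKO embryos at 9.94 to 10.1. Each member is therefore also given with that mean as a covariate, a fit in which control replicate 3 carries the comparison and in which 5.62% of all genes were called and 2.85% called higher. Of the 8 members 2 were called with it, both higher. Grb2 itself stood at -0.40 in that fit and was not called (adjusted p = 0.100). A further feature of the samples was albumin. Alb was 12.2 and 9.95 in Grb2 UB-cKO replicates 1 and 4, and 6.39 to 7.43 in the other 6 embryos.

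Igf1, the only ligand among the 8 genes, stood at 10.13, 10.14, 10.31 and 10.71 in Grb2 UB-cKO replicates 1 to 4. In control replicates 1 to 4 it stood at 9.11, 9.15, 9.29 and 9.03. All knockout values lay above all control values, with the highest in Grb2 UB-cKO replicate 4. Such a gap between the groups was seen for 31.2% of all genes, 15.2% with the knockout above, and for 4 of the 8 members. The means were 10.3 ± 0.27 and 9.14 ± 0.11 (SD, n = 4 each), and the log2 difference came to 1.18 (SE 0.13, 95% interval 0.90 to 1.46, adjusted p = 0.000221). Exact permutation of the group labels, two-sided, has 70 arrangements here and gave p = 0.0286, the smallest this design allows. Of 3048 genes called higher, 154 had a larger log2 fold change than Igf1.

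Igf1 stood at 1.03 with the Y-linked covariate (SE 0.20, adjusted p = 0.0276) and was still called. Control replicate 3, whose Y-linked values match those of the knockout embryos, had the highest control value, 9.29, and lay 1.04 below the knockout mean. Against that control alone the adjusted p was 0.0792, with 1.28% of all genes called.

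Igfbp6 encodes the binding protein with a marked preference for IGF2. It stood at 8.53, 8.28, 8.65 and 8.72 in Grb2 UB-cKO replicates 1 to 4 and at 7.44, 7.57, 7.79 and 7.84 in control replicates 1 to 4. The groups did not overlap, and the lowest knockout value was that of replicate 2. Igfbp6 rose by 0.88 (SE 0.12, 95% interval 0.62 to 1.15, adjusted p = 0.000572), with an exact permutation p of 0.0286. Under the Y-linked covariate the value was 0.75 (SE 0.19) and the call was lost, at an adjusted p of 0.0572.

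Igfbp5 encodes a binding protein that is held in the extracellular matrix. It stood at 12.41, 12.34, 12.43 and 12.63 in Grb2 UB-cKO replicates 1 to 4 and at 11.69, 11.70, 11.86 and 11.83 in control replicates 1 to 4. The groups were again apart, with the highest value in Grb2 UB-cKO replicate 4, as for Igf1. Igfbp5 rose by 0.68 (SE 0.08, 95% interval 0.50 to 0.87, adjusted p = 0.000329), with an exact permutation p of 0.0286. With the Y-linked covariate it was 0.59 (SE 0.13, adjusted p = 0.0388), still called. Against control replicate 3 alone neither Igfbp5 (adjusted p = 0.0848) nor Igfbp6 (adjusted p = 0.0876) was called.

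**Figure D1:**
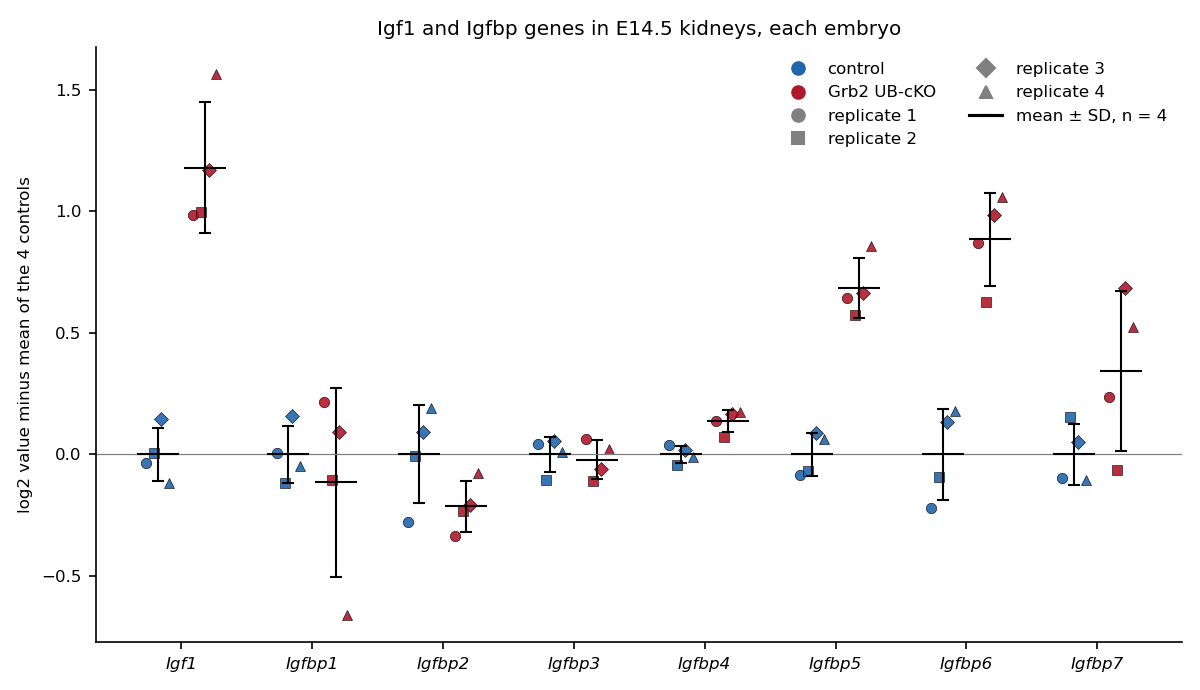
Log2 value of each gene in each embryo, minus the mean of the 4 controls of that gene, with controls in blue and Grb2 UB-cKO in red; the marker shape gives the replicate number and black bars show mean ± SD of 4 embryos. The groups are apart for Igf1, Igfbp4, Igfbp5 and Igfbp6, the shift of Igfbp4 is 0.14, and Igfbp1 in Grb2 UB-cKO replicate 4 lies below all other embryos.

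Igfbp4, which encodes a binding protein that restrains IGF action until pregnancy-associated plasma protein A cuts it, stood at 11.07, 11.01, 11.10 and 11.11 in the knockout embryos and at 10.97, 10.89, 10.95 and 10.92 in controls, in replicate order. The groups did not overlap (exact permutation p = 0.0286), yet the difference was 0.14 (SE 0.06, 95% interval 0.0012 to 0.27) and missed the threshold (adjusted p = 0.128). Igfbp7, whose product is abundant in vessel walls and binds IGFs weakly, stood at 11.47, 11.17, 11.92 and 11.76 in the knockout embryos. In controls it stood at 11.14, 11.39, 11.29 and 11.13. Here 3 of 4 knockout values lay above all controls, and replicate 2 lay among them. The difference was 0.34 (SE 0.15, adjusted p = 0.119). Without Grb2 UB-cKO replicate 2 it was 0.48 and passed (adjusted p = 0.0164).

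Igfbp2, a fetal binding protein gene, stood at 8.07, 8.18, 8.20 and 8.33 in the knockout embryos and at 8.13, 8.40, 8.50 and 8.60 in controls. The groups overlapped through control replicate 1, the lowest control. The difference was -0.21 (SE 0.11, 95% interval -0.45 to 0.02, adjusted p = 0.17), and without control replicate 1 it was -0.31 and passed (adjusted p = 0.0316). Igfbp3 encodes the main carrier of IGFs in adult blood. It ranged from 9.98 to 10.16 in the knockout embryos and from 9.99 to 10.15 in controls, with a difference of -0.02 (SE 0.07, 95% interval -0.18 to 0.14, adjusted p = 0.866). Igfbp1, an insulin-repressed gene of the liver, stood at 6.68, 6.36, 6.56 and 5.80 in the knockout embryos and 6.47, 6.35, 6.62 and 6.42 in controls. Its difference was -0.11 (SE 0.17, 95% interval -0.49 to 0.26, adjusted p = 0.687), with the lowest value in Grb2 UB-cKO replicate 4. Without that embryo the sign turned, to 0.07.

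Some members lie side by side in the mouse genome. Igfbp2 and Igfbp5 are neighbours on chromosome 1 and Igfbp1 and Igfbp3 on chromosome 11, with no other gene between them in the RefSeq table. Within each embryo, Igfbp5 exceeded Igfbp2 by 4.17 to 4.34 on the log2 scale in the knockout kidneys and by 3.23 to 3.56 in controls. This spacing sets values of different probes side by side and is no difference in level, and it shifted between the groups by 0.90 (exact permutation p = 0.0286, and 0.0571 adjusted by Benjamini-Hochberg over the 2 pairs). The neighbours Igfbp1 and Igfbp3 shifted by 0.09 relative to each other (exact permutation p = 0.971). These pairs were chosen after their values were seen, and each shift restates the differences of its 2 members given above. The permutation p-values of the pairs therefore add no separate support.

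**Figure D2:**
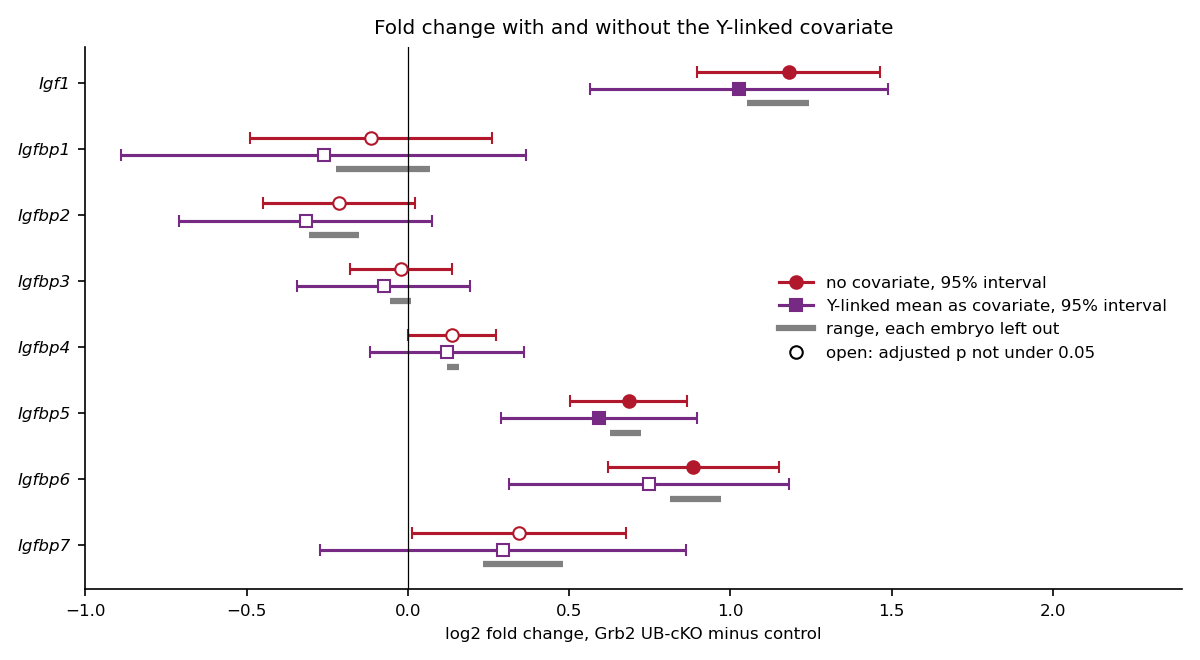
Log2 fold change of each member with its 95% interval, without a covariate (red circles) and after adjustment for Y-linked expression (purple squares); filled symbols have an adjusted p under 0.05 and grey bars span the values with each embryo left out. Igf1 and Igfbp5 are filled in both fits, Igfbp6 only without the covariate, and the widest grey bar that crosses 0 is that of Igfbp1.

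Markers of cell types were set beside these genes, and some lists mostly rose while others mostly fell. Because whole kidneys were read, fewer cells of a type and less RNA per cell cannot be told apart. Over all genes tested 28.1% were called, 13.7% higher and 14.3% lower. Of 11 measured macrophage markers 8 rose and 3 did not pass, with a list mean of 8.12 to 8.50 in knockout and 7.31 to 7.48 in control embryos. Of 12 stromal markers 10 rose, with a list mean of 11.0 to 11.2 against 10.4 to 10.7. Of 9 endothelial markers 6 rose (10.1 to 10.3 against 9.77 to 9.82), and all 6 podocyte markers rose (9.21 to 9.84 against 8.65 to 8.83). Nephron progenitor markers fell in 7 of 9 cases (8.87 to 9.40 against 10.0 to 10.2), and markers of the tip of the ureteric bud, the epithelium in which Grb2 was targeted, fell in 8 of 9 cases (7.30 to 7.72 against 8.93 to 9.20). Of 11 ureteric trunk markers 5 fell and 1 rose, all 5 erythroid markers measured rose, 3 of 8 markers of smooth muscle and ureteric mesenchyme rose, and none of 7 proximal tubule markers passed in limma (1 at an unadjusted p under 0.05). Of 6227 genes called over all genes tested, 1213 were still called in the same direction with the Y-linked covariate. With that covariate 7 of the 8 ureteric tip, 4 of the 7 nephron progenitor, 5 of the 8 macrophage and 3 of the 10 stromal markers were still called. So were 3 of the 6 ureteric trunk, 2 of the 3 smooth muscle, 1 of the 6 podocyte, 1 of the 5 erythroid and, in limma, 0 of the 6 endothelial markers, of which 5 had an unadjusted p under 0.05. The part of these shifts in the rise of Igf1, Igfbp5 and Igfbp6 was not tested.

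The liver is a known source of Igf1 and Igfbp1, so liver markers were set beside the members. The mean of 8 liver markers was 8.59 in Grb2 UB-cKO replicate 1, 7.49 in replicate 4, 6.48 and 6.68 in replicates 2 and 3 and 6.37 to 6.44 in controls. Igf1 was 10.13 and 10.71 in Grb2 UB-cKO replicates 1 and 4, and 10.14 and 10.31 in replicates 2 and 3. Igfbp1 was 6.68 in Grb2 UB-cKO replicate 1, the highest of the 8 embryos, and 5.80 in replicate 4, the lowest. In Grb2 UB-cKO replicates 2 and 3 it was 6.36 and 6.56. The part of liver RNA in these values was not tested. Without replicates 1 and 4, 17.5% of all genes were called, and Igf1 at 1.08 (adjusted p = 0.00109), Igfbp5 at 0.62 (0.00439) and Igfbp6 at 0.81 (0.0101) were among them. Markers of the adrenal cortex stood at 5.53 to 5.96 in knockout and 5.68 to 5.78 in control embryos. Of these, 1 of 7 was called lower, beside 14.3% of all genes. None of 6 gonad markers passed in limma (1 at an unadjusted p under 0.05).

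**Figure D3:**
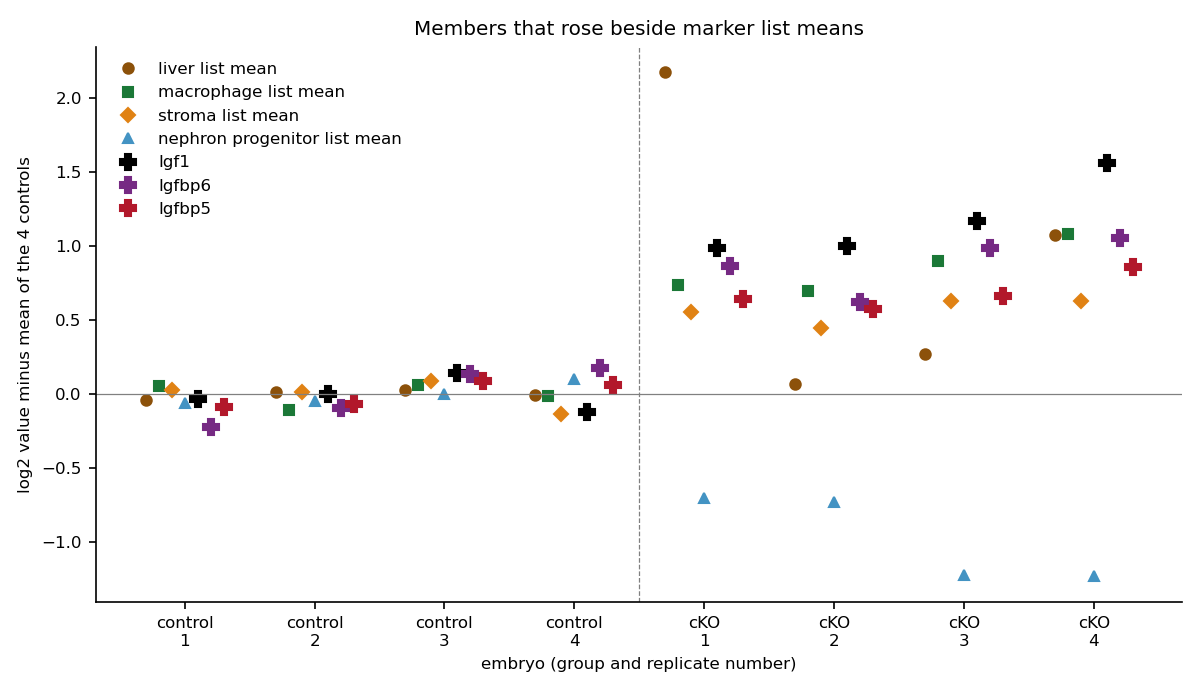
Log2 values of Igf1, Igfbp6 and Igfbp5 (crosses) and means of 4 marker lists (other symbols) in each embryo, minus the mean of the 4 controls. The 3 genes and the macrophage and stroma means are higher in every knockout embryo than in any control, the nephron progenitor mean is lower, and the liver mean is high in Grb2 UB-cKO replicates 1 and 4.

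The other ligand and receptors of the system shifted less than Igf1. Of 9 measured ligands, receptors and carriers, Igf1 included, 5 rose and none fell (median 0.23), a share of 55.6% beside the 28.1% of all genes. Igf2, the main fetal IGF gene, stood at 12.42, 12.30, 12.37 and 12.49 in the knockout embryos and 12.02, 11.88, 12.07 and 12.13 in controls. It rose by 0.37 (SE 0.08, adjusted p = 0.00522). Igf1r, the gene of the signalling receptor, was 11.0 ± 0.10 against 11.0 ± 0.03 (SD, n = 4 each), a difference of 0.01 with a 95% interval of -0.14 to 0.17. Igf2r, which clears IGF2 from the cell surface, rose by 0.28 (SE 0.07, adjusted p = 0.0129), the insulin receptor gene Insr by 0.23 (SE 0.07, adjusted p = 0.0331) and the related receptor gene Insrr by 0.54 (SE 0.09, adjusted p = 0.00169). Insr passed with Grb2 UB-cKO replicate 1 left out but with no other embryo left out (0.19 to 0.26, adjusted p from 0.0245 to 0.0773). Without Grb2 UB-cKO replicates 1 and 4, Igf2 at 0.31 (adjusted p = 0.059) and Igf2r at 0.28 (adjusted p = 0.057) were not called. In that fit 2 genes of the list were called, beside 17.5% of all genes. With the Y-linked covariate Igf1 was the 1 gene of this list still called, and Igf2 stood at 0.33 (adjusted p = 0.187). Of the 5 genes that rose, 3 had an unadjusted p under 0.05 in limma with it.

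Among 14 measured proteases that cut IGF binding proteins, and their inhibitors, 6 rose and 8 did not pass (median 0.17). The share called was 42.9%, beside 28.1% of all genes. Pappa2, whose product cuts IGFBP3 and IGFBP5, stood at 6.19, 6.41, 6.63 and 6.52 in the knockout embryos and 5.57, 5.72, 5.53 and 5.34 in controls. The groups did not overlap, and the rise was 0.89 (SE 0.11, adjusted p = 0.000405). Pappa, whose product cuts IGFBP4, rose by 0.48 (SE 0.09, adjusted p = 0.00327), and Adam12, a membrane protease gene, by 0.90 (SE 0.12, adjusted p = 0.000625). The lysosomal protease gene Ctsd rose by 0.66 (SE 0.10), and the metalloproteinase genes Mmp9 and Mmp2 by 0.63 (SE 0.11) and 0.38 (SE 0.06). Stc1 and Stc2, which encode inhibitors of the pappalysins, stood at 0.24 (adjusted p = 0.183) and -0.0030 (adjusted p = 0.983). With the Y-linked covariate all 6 kept their direction at an unadjusted p under 0.05 in limma. Of these, Pappa2 was the 1 gene still called, at 0.90 (adjusted p = 0.0316). Its control values lay near 5.69, the lower quartile of mean levels over all genes, and no detection calls were given.

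Of 13 genes of other proteins with an IGFBP domain, 4 rose and 9 did not pass (median 0.03). The share called was 30.8%, beside 28.1% of all genes. Htra1 is among the 13 and on the protease list too. Ccn4, a WNT-induced matrix protein gene, rose by 0.93 (SE 0.13, adjusted p = 0.000751) and was called with the covariate too (0.92, adjusted p = 0.0493). Htra3, a secreted serine protease gene, rose by 0.58 (SE 0.07) and was also called with it (0.60, adjusted p = 0.0264). Ccn3 rose by 0.63 (SE 0.14), and its value fell to 0.29 (adjusted p = 0.398) with the covariate. Htra4 rose by 0.32 (SE 0.07), and with the covariate it stood at 0.31 (adjusted p = 0.197).

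Of 27 measured genes of IGF1 receptor signalling, which act downstream of the receptor, 5 rose, 5 fell and 17 did not pass (median 0.03). The share called was 37.0%, beside 28.1% of all genes, of which 13.7% were higher and 14.3% lower. Pik3r1, a regulatory subunit of phosphoinositide 3-kinase, stood at 11.53, 11.52, 11.54 and 11.61 in the knockout embryos and 11.05, 10.92, 10.90 and 10.91 in controls, a rise of 0.60 (SE 0.06, adjusted p = 0.000221). It was the 1 gene of the list called with the covariate (0.65, adjusted p = 0.0183), and 2 of the 10 called genes had an unadjusted p under 0.05 in limma there. The adaptor genes Irs1 and Shc1 rose by 0.45 (SE 0.11) and 0.26 (SE 0.07), and Tsc2, a brake on mTOR, by 0.35 (SE 0.09), while Rheb, the GTPase that TSC2 restrains, was lower at -0.31 (SE 0.06). For Irs1 the mean of its probe sets gave 0.25 (adjusted p = 0.0668), not called.

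Socs2, an inhibitor of cytokine and growth hormone signals, stood at 7.98, 7.66, 8.51 and 8.74 in the knockout embryos and at 8.81 to 9.06 in controls. It was lower in all 4 knockout embryos, at -0.75 (SE 0.20, adjusted p = 0.0208), but missed the threshold without Grb2 UB-cKO replicate 1 (-0.67, adjusted p = 0.0562) or control replicate 2 (-0.73, adjusted p = 0.0524). The mean of its probe sets gave a smaller difference, -0.43 (adjusted p = 0.022), still called. Tsc2 missed it without control replicate 2 (0.32, adjusted p = 0.0556) and stood at 0.20 (adjusted p = 0.482) under the Y-linked covariate. Of the 10 genes called on the signalling list, 4 were called without control replicate 2, and 6 without control replicate 1 or without Grb2 UB-cKO replicate 1. Leaving out Grb2 UB-cKO replicates 1 and 4 left 2 of the list called, and 3888 over all genes. In that fit Irs1 (adjusted p = 0.0523), Shc1 (0.112), Tsc2 (0.101) and Rheb (0.0527) missed the threshold.

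Of 15 measured genes that FOXO transcription factors, which insulin and IGF signals inhibit, are known to induce, 6 rose, 1 fell and 8 did not pass (median 0.19). The share called was 46.7%, beside 28.1% of all genes (13.7% higher and 14.3% lower). Bcl6, a transcriptional repressor gene, rose by 0.73 (SE 0.15, adjusted p = 0.00436), Pdk4, which restrains glucose oxidation, by 0.58 (SE 0.14), and the pro-apoptotic gene Bcl2l11 by 0.40 (SE 0.09). Sesn1 and Sesn3, stress-induced inhibitors of mTOR, rose by 0.38 (SE 0.08) and 0.26 (SE 0.07), and Insr is on this list too. Ccng2, a cyclin of cells that stop dividing, was lower at -0.31 (SE 0.08). None of the 7 was called with the Y-linked covariate in limma (4 at an unadjusted p under 0.05), under which Bcl6 stood at 0.49 (adjusted p = 0.248) and Pdk4 at 0.31 (adjusted p = 0.439). Over all genes, 1213 of 6227 calls were kept with that covariate. Leaving out Grb2 UB-cKO replicates 1 and 4 left 4 of the 7 called, in a fit that called 17.5% of all genes.

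**Figure D4:**
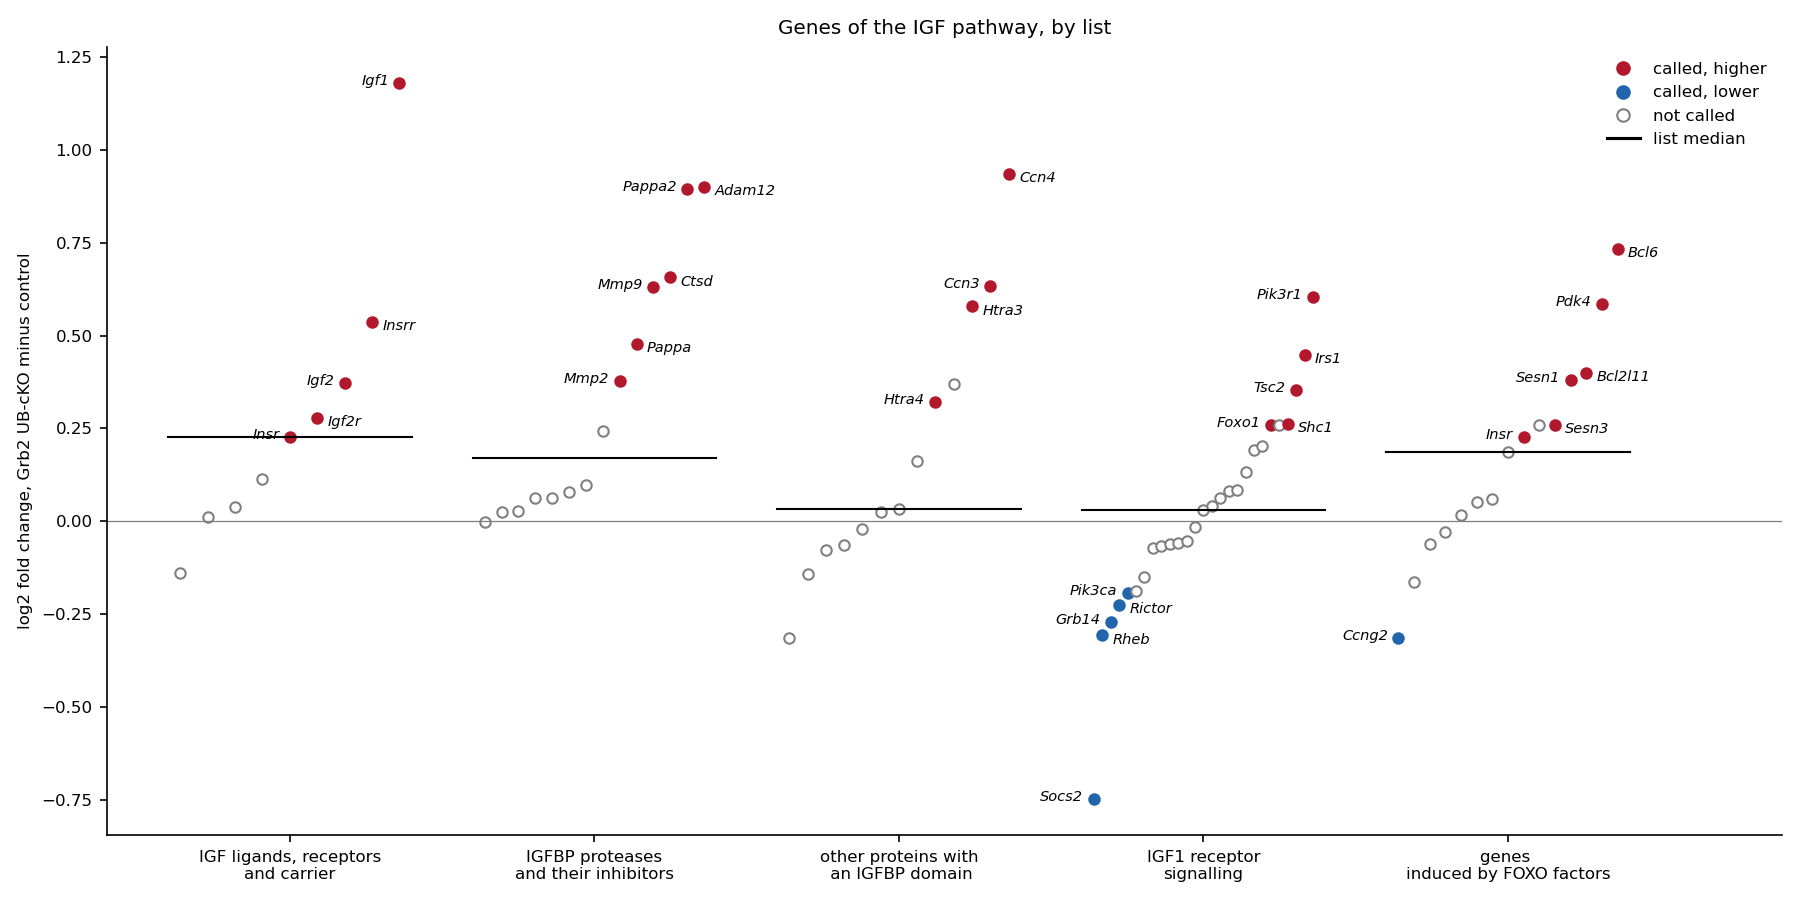
Log2 fold change of every measured gene on 5 lists of IGF pathway genes, sorted within each list, with called genes named in red (higher) or blue (lower), other genes open and black lines at list medians. Igf1 has the highest value of all genes plotted, Socs2 the lowest on the probe set used, and the first 3 lists hold no called gene below 0.

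Genes whose profile over the 8 embryos was closest to that of a member were found by the root mean square difference of log2 values after each gene's mean was subtracted. For Igf1 these were Fap, a serine protease gene of activated fibroblasts (0.0637), Tlr7, an RNA sensor gene of immune cells (0.0756), and Abca1, a cholesterol exporter gene (0.0895). For Igfbp6 they were Tgfb1i1, a focal adhesion gene (0.0421), Loxl1, a cross-linker of elastic fibres (0.061), and Hif3a, a hypoxia-inducible factor gene (0.0615). All 6 rose, by 0.87 to 1.14, so they share the group difference with the member they match, and this likeness is a description. The other members varied by less than 1 on the log2 scale over the 8 embryos and were not matched.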

How the data were processed

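The deposited table holds 41345 probe sets on a log2 scale, made by the authors with the Transcriptome Analysis Console, per the submitters' processing notes. Version, summarization and normalization: not given in the sources used here. Values show the scale (1.25 to 14.1, array medians 6.61 to 6.72). Array number limits the precision.

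Probe sets were named through the platform annotation. Of 23521 single-symbol probe sets, 23328 were matched by Entrez identifier and took the GRCm38.p6 RefSeq symbol. The probe set with the highest mean stood for a gene (22180 genes). Groups were compared in limma 3.58.1 (R 4.3.3) on all 8 arrays without covariates, with Benjamini-Hochberg adjustment over all genes. The p-values cover the spread within 1 litter. On simulated data for these 22180 genes, 53.9% of log2 changes of 0.5 and 91.2% of 1 were recovered. Each of 20 draws had 200 changed genes and independent noise, and gave 7.7 false calls on average. In the data 6227 genes were called and sex differed between the groups, so these rates do not give the power reached here. Upstream sequences are RefSeq's (GRCm38.p6), found for all 8 members.

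Members and lists were chosen with earlier results of these data known. Named pathway genes were the called genes of each of 5 lists, up to 6 by smallest p, beside Igf2, Igf1r, Igf2r and Insr; Stc1 and Stc2 were named after their values were seen. Likeness was computed for members that varied by at least 1, without predicted and small RNA genes. Alternatives were quantile normalization, median centring, a filter on dim genes, other probe set choices, array weights, a trended spread, the Y-linked covariate and leaving out embryos.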

Additional observations from a re-analysis of the deposited data

Results flagged for a closer look

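Of 80 groups of 4 embryos checked (40 genes), 5 held a value that stood far from the other 3, where chance gives about 1 in 20 groups. In control replicate 3 Eif2s3y was 9.95, Kdm5d 9.70 and Uty 10.17, against 3.80 to 4.37 in the other controls, and Xist was 5.39 against 12.2 to 12.8. Pik3r1 was 11.05 in control replicate 1, against 10.90 to 10.92 in the other controls. No value of Igf1 or of an Igfbp gene stood apart in this way.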

How the results depend on the processing

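Igf1, Igfbp5 and Igfbp6 were called with every embryo left out in turn and under each change of scaling, probe set choice and spread that was run, except for the settings named next. Left-one-out values ran from 1.05 to 1.24 for Igf1, 0.63 to 0.72 for Igfbp5 and 0.81 to 0.97 for Igfbp6. With the Y-linked covariate 1246 of all genes were called instead of 6227, and Igfbp6 (0.75) was lost. Against control replicate 3 alone 285 genes were called and, in limma, 0 members (3 at an unadjusted p under 0.05), with Igf1 at 1.04, Igfbp5 at 0.60 and Igfbp6 at 0.75; a single control leaves fewer samples, and its spread is assumed to be that of the knockout group. Without Grb2 UB-cKO replicates 1 and 4, 3888 genes were called. The last 2 settings were chosen after seeing the data. Leaving out 1 embryo gave -0.22 to 0.068 for Igfbp1, -0.31 to -0.15 for Igfbp2, -0.057 to 0.0079 for Igfbp3, 0.23 to 0.48 for Igfbp7 and -0.021 to 0.061 for Igf1r. The signs turned without Grb2 UB-cKO replicate 4 for Igfbp1 and without replicate 2 for Igfbp3 and Igf1r, none of them called. Quantile normalization gave 0.0087 for Igfbp3, and a trended, robust spread called Igfbp4 at 0.14 (adjusted p = 0.0491, range over alternatives 0.0491 to 0.61). The cause of these changes was not tested. Of 27 called genes named beside the members, Grb2 included, 23 missed the threshold with the Y-linked covariate and 27 against control replicate 3 alone. No paired analysis was possible because replicate numbers follow the order of the records and pair nothing. The files give no detection calls, so whether dim probe sets such as those of Igfbp1 and Pappa2 were above background is unknown.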
